A study of Mus musculus with 15 samples.

Results

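Autophagy is the pathway by which a cell wraps part of its cytoplasm in a double membrane, the autophagosome, and delivers it to the lysosome for breakdown. The ULK1 kinase complex starts the process, a class III phosphatidylinositol 3-kinase marks the site, ATG9 and ATG2 proteins supply lipid, and a ubiquitin-like conjugation system attaches ATG8 proteins (LC3 and GABARAP) to the growing membrane, where receptors such as p62 bring in cargo. In liver, the pathway is known for recycling amino acids, lipid droplets and mitochondria between meals. The 39 genes described here were chosen by gene symbol, with earlier results of these data known, and no measured value enters the choice: 5 genes of the ULK complex, 6 of the class III PI3-kinase, 5 of lipid transfer and early membranes, 7 of the conjugation system, 4 ATG4 proteases, 5 ATG8 proteins, 5 receptors and 2 transcription factors. They are 39 of the 20097 genes with a symbol in the files, and 58 of 28167 transcripts.

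Ribosome profiling, which sequences the mRNA fragments that ribosomes protect from RNase, was performed on whole liver of wild-type male C57BL/6N mice aged 8 to 10 weeks. The mice were kept in 12 h of light and 12 h of dark and then held in constant darkness for 24 h before livers were taken, every 4 h from circadian time CT0 to CT24, from 2 mice at each of the 7 times, which gave 14 libraries. CT0 is subjective dawn and CT12 subjective dusk. There was 1 genotype and no treatment, so the comparison is between times of day, and p-values measure the spread between these mice. The last pair carries CT24 in its title and CT00 in another label, and the title was used.

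Counts per library, summed over all transcripts, ran from 40593197 to 90458783. A read can be counted for several transcripts of a gene, and the sums over 1 transcript per gene were 29804838 to 65107827. Of the counts over all transcripts, the 39 genes took 0.0477% to 0.0845%. Even numbers made up 100% of the counts above 0 in CT16 replicate 2 and 48.95% to 50.4% in each of the other 13 libraries, and the label of CT16 replicate 2 folds a second sequencing run into its file. Halving its counts left the same 9 rhythmic genes described below. The clock genes followed the labelled times: Nr1d1 footprints peaked at CT8.54, Dbp at CT11.2, Per2 at CT16.5 and Arntl at CT23.0. Hepatocyte markers were high in every library, at 40030 to 55630 CPM in sum (CPM, counts scaled to a common library size of 1e+06, here and below scaled by TMM, a method that sets libraries equal for the bulk of their transcripts). Summed markers of pancreatic acinar cells reached 3229 CPM in CT20 replicate 2 against a median of 7.45 CPM. In whole liver, fewer cells of a type and less RNA per cell cannot be told apart.

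The question put to each gene was whether its ribosome footprints followed a 24 h rhythm. Of the 39 genes, 38 averaged 10 or more counts in a library and were tested. Atg4a, an ATG4 protease on the X chromosome, had 1 read in CT24 replicate 1 and none in the other 13 libraries, and 83.5% of its coding stretches of 28 nt occur elsewhere in the genome. A rhythm passed the test in 9 of the 38 genes, or 23.7% (edgeR quasi-likelihood F test of a 24 h cosine, adjusted p under 0.05 over 17299 transcripts). Over all transcripts tested, 1947 passed, or 11.3%. Among transcripts averaging 100 or more counts the share was higher, 16.7%, and the same 9 genes passed out of 36. The median fitted peak-to-trough difference was 0.38 on the log2 scale over the 38 genes and 0.44 over all transcripts, and 0.37 for both where the average was 100 or more counts.

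The 9 genes came from 4 steps of the pathway: Ulk1, Rb1cc1 and Atg101 of the ULK complex, Atg2a of lipid transfer, Map1lc3b and Gabarapl1 of the ATG8 proteins, and Sqstm1, Nbr1 and Bnip3 of the receptors. No gene of the class III PI3-kinase, the conjugation system, the 3 ATG4 proteases tested or the transcription factors passed this edgeR test. JTK_CYCLE, a rank test that was run as an alternative, called 13 genes on the same TMM-scaled values by its own P, which is adjusted within a transcript only (17.7% of all transcripts passed). It called 8 of the 9, without Sqstm1, and added Pik3r4, Pik3c3 and Uvrag of the PI3-kinase, Atg7 of the conjugation system and Atg2b. After Benjamini-Hochberg adjustment over all transcripts it called 5 genes (3.68% of all transcripts), namely Atg101, Map1lc3b, Bnip3, Atg2a and Pik3r4. Of the 9, 6 had fitted peaks between CT7 and CT13, around the later subjective day and dusk, Bnip3 peaked at CT14.5, and Atg101 and Sqstm1 peaked at CT1.34 and CT1.22. Over all 1947 rhythmic transcripts, 54.0% peaked between CT6 and CT18, against 7 of these 9 genes. When the replicate 1 and replicate 2 series were fitted apart, the phases differed by at most 3.19 h in each of the 9 genes.

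**Figure D1:**
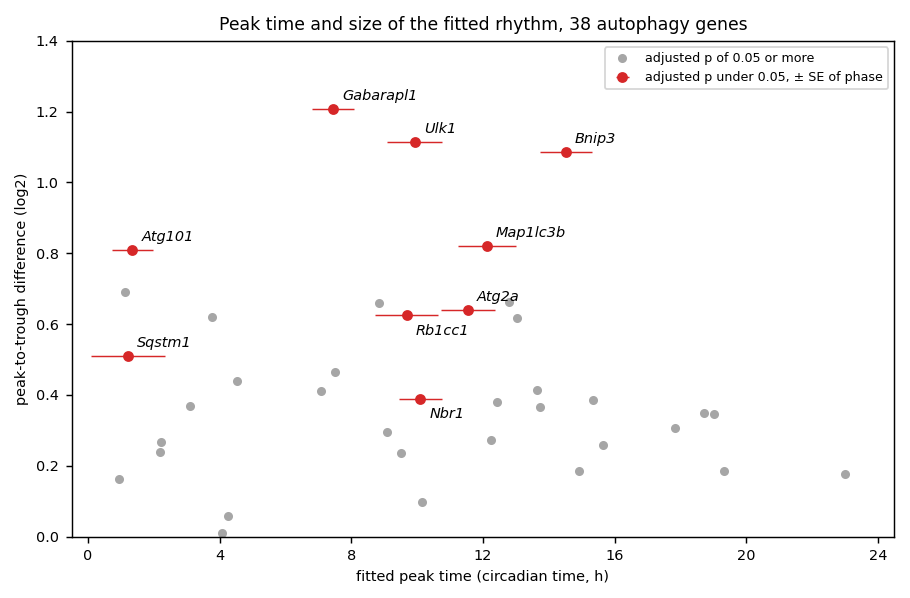
Fitted peak time (circadian time, h) against the fitted peak-to-trough difference (log2) for the 38 tested autophagy genes; red points passed the edgeR test, with bars of ± 1 SE of the phase, and grey points did not. Red points lie at CT1.22 and CT1.34 and between CT7.45 and CT14.5, with Gabarapl1 the highest at 1.21.

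The scaling of libraries bears on this count. From CT0 and CT24 to CT12 the median transcript moved by -0.01 on the log2 scale after TMM scaling and by -0.48 when counts were divided by the library total, and TMM factors ran from 0.736 to 1.46. With the library total, 8.24% of transcripts and 2 of the 38 genes, Atg101 and Sqstm1, passed, and the fitted phase of Nbr1 moved from CT10.1 to CT23.2. The fitted difference on the log2 scale was then 0.99 for Bnip3 (1.09 with TMM) and 0.92 for Gabarapl1 (1.21), with adjusted p of 0.113 and 0.0905. It was 0.68 for Ulk1 (1.11 with TMM), 0.45 for Map1lc3b (0.82), 0.26 for Atg2a (0.64), 0.17 for Rb1cc1 (0.62) and 0.10 for Nbr1 (0.39). It was larger for Atg101, 1.17 against 0.81, and for Sqstm1, 0.91 against 0.51. The changes given here are therefore relative to the median transcript.

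**Figure D2:**
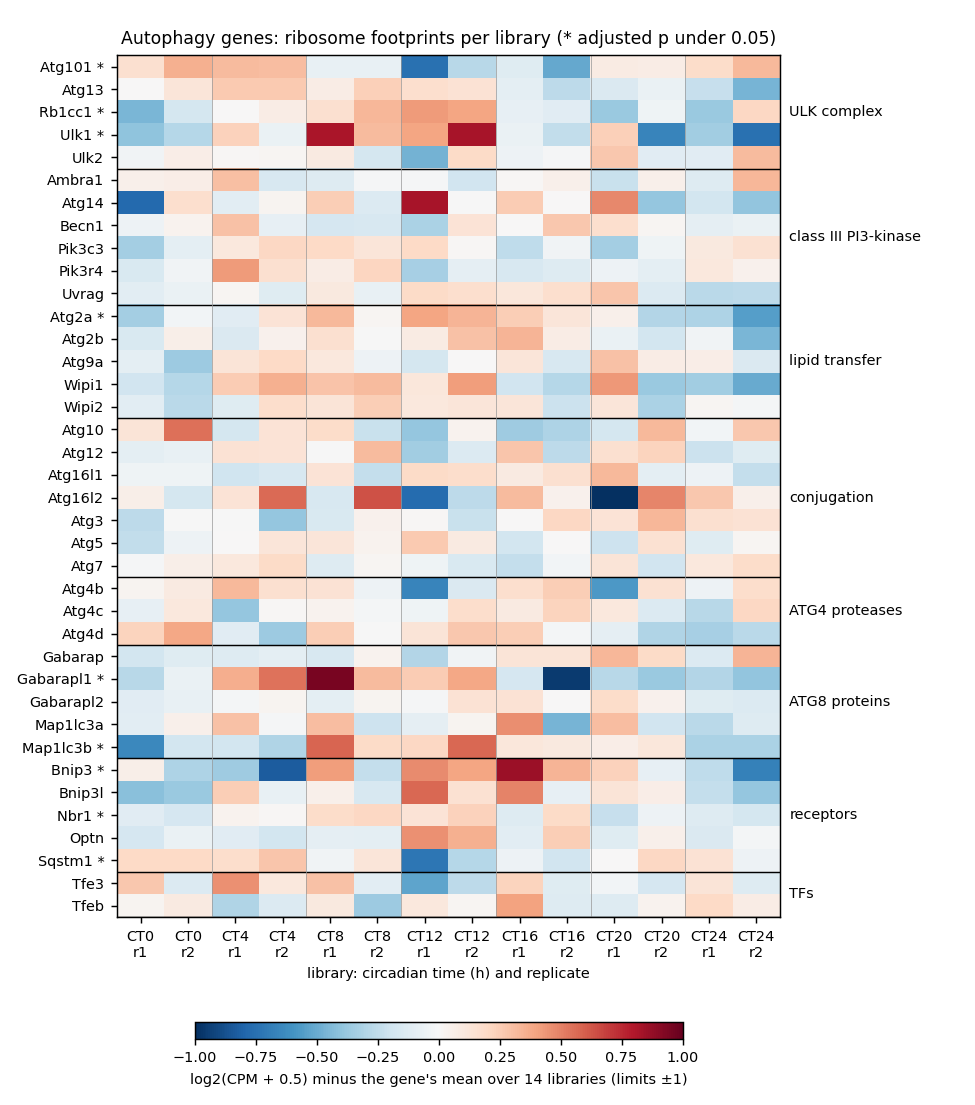
Footprints of the 38 tested genes in each of the 14 libraries, as log2(CPM + 0.5) minus the gene's own mean (color, limits ± 1), with genes grouped by role and asterisks for the 9 that passed the test. Ulk1 and Gabarapl1 are reddest at CT8 and CT12 or CT4 and CT8, and Sqstm1 and Atg101 are bluest in CT12 replicate 1.

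In the ULK complex, 3 of 5 genes were rhythmic. Ulk1 (chromosome 5, 110784489 to 110810120, GRCm38) encodes the kinase that starts autophagy and is restrained by mTORC1. Its footprints were 8.03 and 8.75 CPM at CT0, 12.8 and 10.3 at CT4, 19.4 and 13.6 at CT8, 14.3 and 19.5 at CT12, 10.3 and 9.0 at CT16, 12.8 and 6.65 at CT20, and 8.40 and 6.25 at CT24. All 4 libraries of CT8 and CT12 lay above the other 10. The fitted peak was at CT9.93 ± 0.83 (SE) with a 2.16-fold peak-to-trough difference (adjusted p = 0.00313).

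Rb1cc1 (chromosome 1, 6214634 to 6276375) encodes FIP200, the scaffold of the complex. It gave 5.47 and 6.75 CPM at CT0, 7.72 and 8.12 at CT4, 8.67 and 9.82 at CT8, 10.5 and 10.3 at CT12, 7.23 and 7.05 at CT16, 5.83 and 7.46 at CT20, and 5.83 and 8.96 at CT24. The CT12 pair was the highest, while CT24 replicate 2 overlapped the values of CT8. Its peak was fitted at CT9.68 ± 0.95 with a 1.54-fold difference (adjusted p = 0.0315), and the call was lost in 6 of 14 fits that each left out 1 library (adjusted p up to 0.0810), namely either library of CT0 or of CT12, CT8 replicate 2 or CT24 replicate 1. It was also lost over CDS reads alone (adjusted p = 0.05001), without both CT0 libraries (0.111) and without both CT20 libraries (0.0529). Of its coding stretches of 28 nt, 31.9% occur at 1 other place in the genome, and its level is uncertain to that extent.

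Atg101 (chromosome 15, 101284301 to 101290947) encodes the partner that stabilizes ATG13, and its fitted peak lay near subjective dawn. Its values were 11.6 and 13.3 CPM at CT0, 12.9 and 12.8 at CT4, 9.76 and 9.72 at CT8, 5.92 and 8.42 at CT12, 9.45 and 7.05 at CT16, 10.9 and 10.8 at CT20, and 11.8 and 13.0 at CT24. The CT12 and CT16 libraries were the lowest 4, and those of CT0, CT4 and CT24 the highest 6. The fit placed the peak at CT1.34 ± 0.62 with a 1.75-fold difference (adjusted p = 0.00181). Atg101 passed under every one of the 35 alternatives tried.

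The remaining ULK complex genes did not pass. Atg13, the adaptor that joins ULK1 to FIP200, had a fitted difference of 0.46 on the log2 scale (adjusted p = 0.13), and Ulk2, a paralog of Ulk1, had 0.18 (adjusted p = 0.733). The value for Ulk2 was 0.06 without CT12 replicate 1 and 0.30 without CT12 replicate 2. Within each library the log2 ratio of Ulk1 to Ulk2 counts rose from -0.15 at CT0 to 1.01 at CT12 and was -0.45 at CT24 (means of 2). This ratio does not depend on the scaling of libraries, and its 24 h fit had a peak-to-trough difference of 1.32 ± 0.22 (SE). Permutation of the 14 times gave p = 0.00026, and 0.00102 after Benjamini-Hochberg adjustment over the 15 pairs of paralogs compared. The pair was compared after the values were seen, and Ulk1 was already called above, so this is not a further result.

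None of the 6 genes of the class III PI3-kinase passed the edgeR test. Becn1 encodes Beclin 1, the regulatory subunit, and its footprints ran from 4.36 to 6.91 CPM (fitted difference 0.18 on the log2 scale, adjusted p = 0.767, and 0.33 without CT4 replicate 1). Pik3r4, the VPS15 subunit, came nearest to the threshold, with its highest mean of 13.6 ± 1.83 CPM (SD, n = 2) at CT4 and its lowest of 9.41 ± 1.20 at CT12 (adjusted p = 0.0961). JTK_CYCLE called Pik3r4 on TMM-scaled CPM (adjusted P = 0.00161, or 0.0438 after Benjamini-Hochberg adjustment) and on total-count CPM (0.0297). Pik3c3, the catalytic subunit, and Uvrag were called by JTK_CYCLE on TMM-scaled CPM alone (0.0079 each, and 0.101 each after Benjamini-Hochberg adjustment). For Pik3c3, Atg14, Uvrag and Ambra1 the edgeR adjusted p ran from 0.192 to 0.718. Atg14 had a fitted difference of 0.66 on the log2 scale, which was 0.40 without CT12 replicate 1 (adjusted p = 0.629). Its libraries ran from 1.84 to 6.59 CPM, and its CT12 pair was 6.59 and 3.48 CPM.

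Among the genes of lipid transfer and early membranes, Atg2a was rhythmic. ATG2A is a rod-shaped protein that moves lipid from the endoplasmic reticulum to the growing membrane (gene on chromosome 19, 6241478 to 6262304). Footprints on Atg2a were 13.8 and 17.3 CPM at CT0, 16.2 and 19.4 at CT4, 22.2 and 17.9 at CT8, 23.4 and 22.4 at CT12, 21.0 and 19.2 at CT16, 18.2 and 14.3 at CT20, and 14.2 and 11.9 at CT24. The CT12 pair lay above all other libraries and the CT24 pair was low. The peak was at CT11.5 ± 0.83 with a 1.56-fold difference (adjusted p = 0.0096), and the call was lost without both CT24 libraries. Atg2b, its paralog, had a fitted peak at CT12.4 and a difference of 0.38 on the log2 scale (adjusted p = 0.15). Atg9a, the lipid scramblase of the seed vesicles, had a fitted difference of 0.01 (adjusted p = 0.999), and of up to 0.14 when 1 library was left out. The PI3P-binding Wipi1 and Wipi2 had fitted differences of 0.66 (adjusted p = 0.176) and 0.29 (adjusted p = 0.327). Wipi1 passed without CT20 replicate 1 (1.03, adjusted p = 0.00453) and without both CT20 libraries (1.09, adjusted p = 0.00942).

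None of the 7 conjugation genes passed the edgeR test. JTK_CYCLE called Atg7 on TMM-scaled CPM (adjusted P = 0.0196, or 0.16 after Benjamini-Hochberg adjustment), and on total-count CPM it called Atg7 (0.00161) and Atg10 (0.0079). Atg7, the E1-like enzyme, ranged from 13.1 to 17.7 CPM, and Atg3, the E2-like enzyme for ATG8 proteins, from 12.9 to 21.5 CPM. The fitted differences of the 7 genes ran from 0.06 for Atg12 (0.22 without CT16 replicate 1) to 0.69 for Atg10 on the log2 scale. Their edgeR adjusted p ran from 0.218 for Atg16l1 to 0.982 for Atg12. The 3 ATG4 proteases tested, which trim ATG8 proteins before conjugation, had fitted differences between 0.24 and 0.27 and adjusted p between 0.642 and 0.725. With 1 library left out these differences ran from 0.14 (Atg4b without CT12 replicate 1) to 0.44 (Atg4d without CT0 replicate 2), and none passed.

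The ATG8 proteins are the ubiquitin-like tags of the membrane, and their 5 genes did not move together. Gabarapl1 (chromosome 6, 129533192 to 129542331) had the largest fitted difference of all 38 genes. Its libraries gave 45.5 and 52.9 CPM at CT0, 71.2 and 80.7 at CT4, 107 and 68.8 at CT8, 66.1 and 72.4 at CT12, 49.3 and 28.3 at CT16, 45.5 and 42.6 at CT20, and 45.2 and 41.9 at CT24. The 6 libraries of CT4, CT8 and CT12 were all above the other 8. The fit gave a peak at CT7.45 ± 0.64 and a 2.31-fold difference (adjusted p = 0.000783).

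Map1lc3b (chromosome 8, 121590438 to 121598760) encodes LC3B, the usual marker of autophagosomes. Its footprints were 3.42 and 4.91 CPM at CT0, 4.91 and 4.48 at CT4, 8.69 and 6.53 at CT8, 6.6 and 8.64 at CT12, 6.14 and 6.05 at CT16, 5.93 and 6.15 at CT20, and 4.42 and 4.44 at CT24. The 4 libraries of CT8 and CT12 were the highest, and those of CT0, CT4 and CT24 the lowest. The peak came at CT12.1 ± 0.87, with a 1.77-fold difference (adjusted p = 0.0084). Every stretch of 28 nt in its coding sequence also occurs elsewhere in the genome, at 7 places, so its level is uncertain where shared reads were split or dropped.

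Gabarap, Gabarapl2 and Map1lc3a did not pass. Gabarap gave 44.3 and 46.2 CPM at CT0, 46.0 and 46.9 at CT4, 44.9 and 51.4 at CT8, 41.0 and 49.0 at CT12, 55.1 and 55.1 at CT16, 63.5 and 57.5 at CT20, and 45.7 and 64.0 at CT24 (adjusted p = 0.274). Its highest mean was thus at CT20, when Gabarapl1 was low, and the CT24 pair spread over most of the range. Gabarapl2 stayed between 21.6 and 27.1 CPM (adjusted p = 0.526), the smallest spread of the 5 relative to its mean (coefficient of variation of its CDS density, 7.82%), and 99.7% of its coding stretches of 28 nt occur elsewhere. Map1lc3a, which encodes LC3A, ran from 11.2 to 21.7 CPM, and both of these extremes were at CT16 (adjusted p = 0.943).

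**Figure D3:**
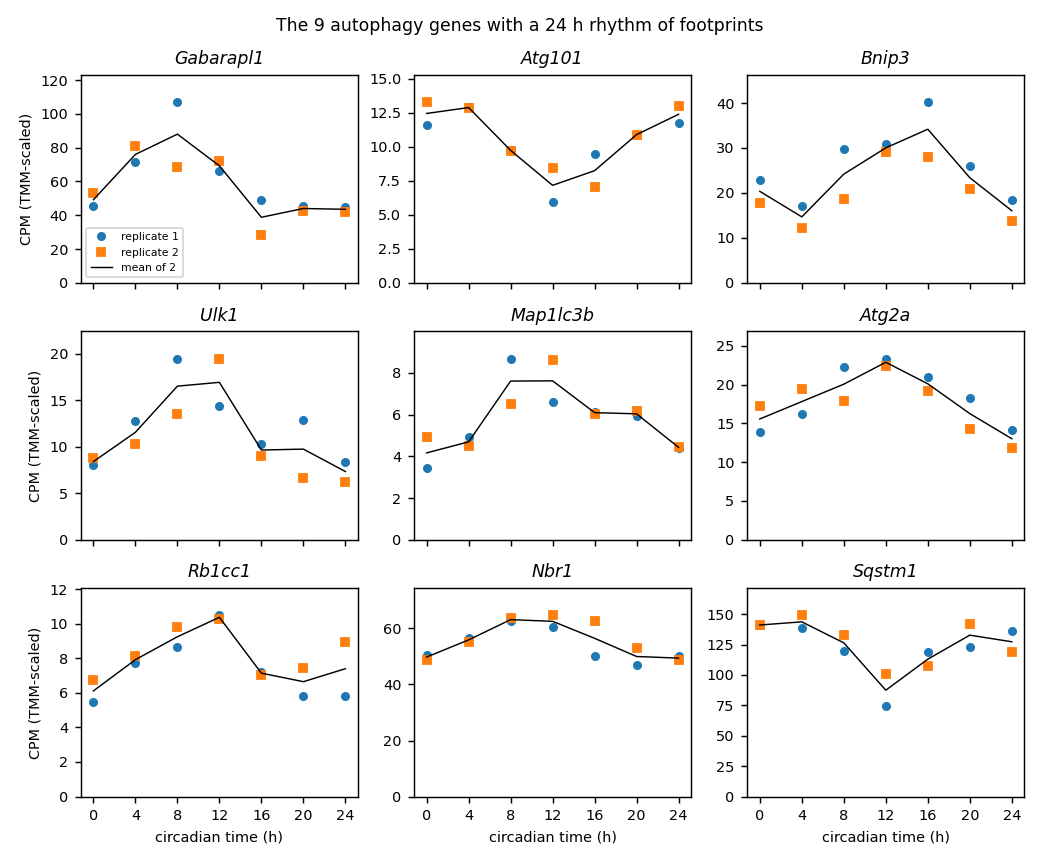
Footprints (TMM-scaled CPM, axes from 0) of the 9 rhythmic genes against circadian time (h), with 1 point per mouse and a line through the mean of the 2 mice. Gabarapl1 is high from CT4 to CT12, Ulk1, Map1lc3b, Atg2a, Rb1cc1 and Nbr1 are high around CT8 to CT12, and Bnip3 at CT12 to CT16. Atg101 and Sqstm1 are lowest at CT12.

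Ratios of counts within a library, in which scaling cancels, were compared for all 10 pairs of ATG8 genes and 5 other pairs of paralogs. This comparison was chosen after the values were seen. A 24 h rhythm of the ratio passed in 7 of the 10 ATG8 pairs and in 9 of all 15 (permutation of the 14 times, Benjamini-Hochberg adjusted p under 0.05 over 15 pairs). These 7 pairs are the 7 that hold Map1lc3b or Gabarapl1, the genes already called above, so their number is not a further result. The same holds for Ulk1 over Ulk2 and Atg2a over Atg2b, since Ulk1 and Atg2a were also called above. The same 7 passed over CDS reads alone, a choice also made after seeing the data. Gabarap over Gabarapl1 had a mean log2 ratio of -0.12 at CT0, -0.84 at CT8, 0.56 at CT16 and 0.31 at CT24. Over the 3 regions together, Gabarapl1 had more reads in both libraries of each time from CT0 to CT12, and Gabarap in all 6 libraries from CT16 to CT24. This order rests on the regions added, since the 5′UTR holds more of the reads of Gabarapl1. Over the CDS alone, of 358 nt in both genes, Gabarapl1 had more reads in only 4 libraries, both of CT4 and the replicate 1 libraries of CT8 and CT12, and Gabarap in the other 10. The swing of the ratio was 1.57 ± 0.28 (SE) over all regions and 1.48 ± 0.27 over the CDS (adjusted permutation p = 0.00312). Map1lc3b over Gabarapl1 ran from -4.01 at CT4 to -2.61 at CT16, and its fit peaked at CT16.8 ± 0.56 and swung by 1.25 ± 0.20 from trough to peak (permutation p = 3e-05, adjusted 0.00045). A ratio can swing through a difference in size as well as in timing, and the difference in phase between these 2 genes was not tested.

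The log2 ratio of Gabarap to Gabarapl2 stayed between 0.85 and 1.32 in its time means (1.80-fold to 2.49-fold), and its rhythm did not pass (adjusted permutation p = 0.122). Neither did Map1lc3a over Gabarap (0.302) or Map1lc3a over Gabarapl2 (0.588). Atg2a over Atg2b had a difference of 0.28 ± 0.09 (adjusted permutation p = 0.0466), and over CDS reads alone it missed the threshold (0.0635). The rhythms of Bnip3 over Bnip3l (adjusted permutation p = 0.18), Wipi1 over Wipi2 (0.257) and Tfeb over Tfe3 (0.137) did not pass. No pair of ATG8 genes of equal coding length shared a stretch of 28 nt, and the coding sequences of Gabarap and Gabarapl1 were 74.9% identical, so reads of that length can tell these 2 genes apart.

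**Figure D4:**
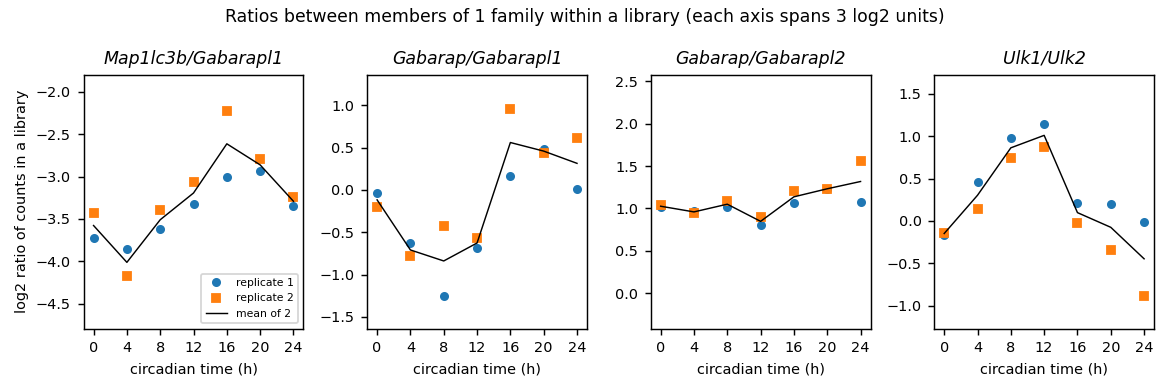
Log2 ratio of the counts of 2 paralogs in the same library against circadian time (h), with 1 point per mouse and a line through the mean of 2; each axis spans 3 log2 units. Gabarap over Gabarapl1 crosses 0 between CT12 and CT16, Gabarap over Gabarapl2 stays between 0.85 and 1.32 in its means, and Ulk1 over Ulk2 is highest at CT12.

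Receptors tie cargo to ATG8 proteins, and 3 of the 5 genes passed. Bnip3 (chromosome 7, 138890836 to 138909506) encodes an outer mitochondrial membrane receptor for mitophagy that hypoxia is known to induce. Its values were 23.0 and 17.7 CPM at CT0, 17.1 and 12.2 at CT4, 29.7 and 18.6 at CT8, 30.8 and 29.2 at CT12, 40.3 and 28.1 at CT16, 26.0 and 20.8 at CT20, and 18.4 and 13.7 at CT24. The replicate 1 library was above replicate 2 at each of the 7 times, and both were high at CT12 and CT16. The peak was at CT14.5 ± 0.78 with a 2.12-fold difference (adjusted p = 0.00268). Of the coding stretches of 28 nt, 87.5% occur elsewhere in the genome, at 4 places. Its paralog Bnip3l, also called Nix, peaked near the same time (CT13.0 ± 1.30) with a 1.53-fold difference that missed the threshold (adjusted p = 0.0641) in edgeR and passed in the DESeq2 likelihood ratio test (0.0352), and 91.3% of its stretches occur elsewhere.

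Nbr1 (chromosome 11, 101552107 to 101581951) encodes a ubiquitin-binding receptor. Footprints were 50.7 and 48.9 CPM at CT0, 56.5 and 55.4 at CT4, 62.7 and 63.6 at CT8, 60.5 and 64.7 at CT12, 50.2 and 62.8 at CT16, 46.9 and 53.1 at CT20, and 50.2 and 48.6 at CT24. The 4 libraries of CT8 and CT12 were high, but CT16 replicate 2 reached the same level. The rhythm was the smallest of the 9, with a 1.31-fold difference and a peak at CT10.1 ± 0.64 (adjusted p = 0.0424). The call was kept in only 3 of 14 fits that left out 1 library, those without CT16 replicate 1, CT16 replicate 2 or CT20 replicate 2 (adjusted p from 0.033 to 0.0952 over the 14). It was also lost with a count minimum of 1 (adjusted p = 0.0612), with no count minimum (0.125) and without both libraries of CT0 (0.118), CT20 (0.0651) or CT24 (0.113).

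Sqstm1 (chromosome 11, 50200152 to 50210820) encodes p62, the receptor that is itself degraded by autophagy, and it had the most reads of the 39 genes. It gave 141 and 141 CPM at CT0, 138 and 149 at CT4, 120 and 133 at CT8, 74.3 and 101 at CT12, 119 and 107 at CT16, 123 and 142 at CT20, and 136 and 118 at CT24. The CT12 pair lay below all other libraries. The fit gave a peak at CT1.22 ± 1.12 and a 1.42-fold difference (adjusted p = 0.049). The call was kept in 4 of 14 fits that left out 1 library, those without CT8 replicate 2, CT16 replicate 1, CT20 replicate 2 or CT24 replicate 2 (adjusted p from 0.0282 to 0.146 over the 14). It was also lost with the replicate number as a block (adjusted p = 0.0506), with 1 transcript per gene (0.0522), with a count minimum of 1 (0.0567), without both libraries of CT0 (0.143), CT16 (0.062) or CT20 (0.0502), and in JTK_CYCLE on TMM-scaled CPM (adjusted P = 0.0904). Optn, which encodes optineurin, had its highest mean at CT12, 25.1 ± 1.31 CPM (SD, n = 2), and its lowest at CT4, 17.0 ± 0.55, and missed the threshold (adjusted p = 0.0927), which it passed without CT16 replicate 1 (0.0313).

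Tfeb and Tfe3 encode the transcription factors that are known to drive lysosome and autophagy genes when mTORC1 is off. Tfeb ran from 2.29 to 4.25 CPM (fitted difference 0.31 on the log2 scale, adjusted p = 0.629) and Tfe3 from 3.70 to 7.83 CPM (0.37, adjusted p = 0.445). Without CT16 replicate 1 these differences were 0.17 for Tfeb and 0.58 for Tfe3, and neither passed. Both had few reads, with mean counts of 188 and 339 per library.

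A test of the 7 times as separate groups, which assumes no shape, passed in 5 of the 38 genes: Gabarapl1 (edgeR adjusted p = 0.00941), Bnip3 (0.0266), Ulk1 (0.0279), Atg101 (0.0447) and Map1lc3b (0.0486). Over all transcripts, 7.08% passed. All 5 were also among the 9 rhythmic genes. This count was 1 without CT24 replicate 2, 2 without CT0 replicate 1, CT4 replicate 2 or CT8 replicate 1, and 3 without CT0 replicate 2, CT4 replicate 1, CT20 replicate 1, CT24 replicate 1 or any 1 library of CT12 or CT16. Without CT8 replicate 2 it was 4 and without CT20 replicate 2 it was 5. The share of all transcripts that passed is not given for these fits.

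CT0 and CT24 are the same circadian time 1 day apart. None of the 38 genes differed between them (edgeR, 0.0% of 17299 transcripts passed, smallest adjusted p among the genes 0.957). At an unadjusted p under 0.05 there were 2 of the 38 genes and 5.05% of all transcripts. These were Atg4d, lower at CT24 by a log2 change of -0.68 (unadjusted p = 0.0089), and Atg13, with -0.43 (unadjusted p = 0.0239). A fit of the 4 libraries alone also gave 0 genes. With 2 mice at each time, small differences could not be seen.

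Coding-region density sets the level of the genes against each other. It is given as RPKM, the CDS reads per kilobase of CDS and per 1e+06 TMM-scaled counts. Gabarap was highest at 129 ± 19 (SD over 14 libraries), followed by Gabarapl1 at 101 ± 32.4, Sqstm1 at 93.0 ± 15.1, Gabarapl2 at 61.5 ± 4.81 and Bnip3 at 35.1 ± 12.3. Gabarap and Gabarapl1 overlapped in range (109 to 163 and 58.3 to 178), as did Gabarapl1 and Sqstm1 (55.5 to 111), and Sqstm1 and Gabarapl2 (54.4 to 70.3). Bnip3 overlapped Gabarapl2 only in its highest library (59.8). Map1lc3a (30.8 ± 4.56) was above Map1lc3b (14.6 ± 4.09) in range (22.8 to 41.3 against 7.86 to 22.4).

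Of the 39 genes, 13 had a mean CDS density of at least 10, 24 lay between 1 and 10, and Atg16l2 (0.373 ± 0.193) and Atg4a were below 1. The PI3-kinase subunits lay at ranks 20 to 29 of the 39 and the kinases Ulk1 and Ulk2 at 21 and 31. Becn1 was at 3.42 ± 0.44, Ulk1 at 3.13 ± 1.16 and Rb1cc1 (rank 37), the lowest of the 9 rhythmic genes, at 1.41 ± 0.34. From Becn1 down to Rb1cc1, neighbors in the order differed by less than the larger of their SDs. Tfe3 (2.98 ± 0.61) and Tfeb (2.08 ± 0.32) had overlapping ranges.

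**Figure D5:**
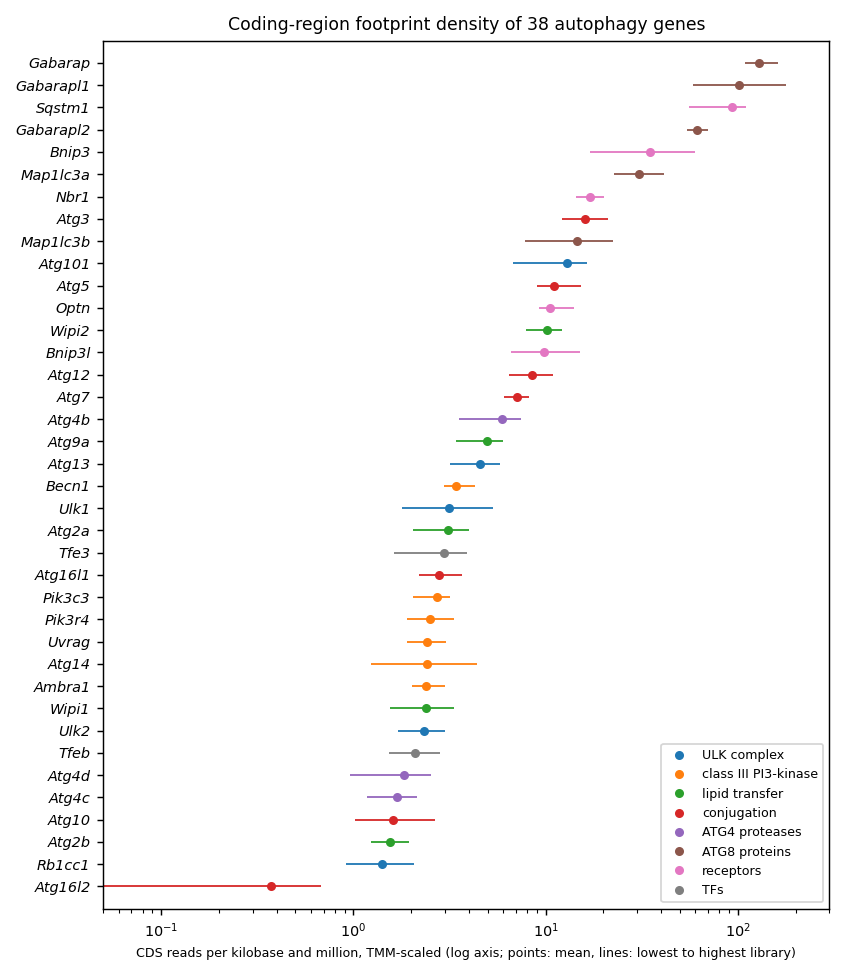
Mean CDS density (RPKM, TMM-scaled, log axis) of the 38 tested genes, colored by role, with lines from the lowest to the highest of 14 libraries; the line of Atg16l2 reaches 0 in 1 library and is drawn to the left edge. The highest 4 genes are Gabarap, Gabarapl1, Sqstm1 and Gabarapl2, Map1lc3b is at rank 9, and the ULK complex and PI3-kinase genes other than Atg101 lie between 1 and 5.

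Reads in the 5′UTR, the leader ahead of the coding region, were plentiful on some members. As a share of the reads in 5′UTR and CDS, the median over the 39 genes was 8.85%, against 3.88% over all transcripts tested. Gabarapl1 had 37.7% of such reads in its 5′UTR, Map1lc3a 28.5% and Gabarap 6.24%, while Sqstm1 had 0.0928% and Map1lc3b 0.396%. Atg9a had the highest share, 43.2%, but this depends on the transcript: the one used here has a 5′UTR of 1180 nt and a CDS of 1875 nt, with 13708 reads over the 14 libraries, and the other 2, with a CDS of 2534 nt and 13707 reads, gave 19.6%.

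No rhythm of the ratio of 5′UTR to CDS reads passed in the 27 genes with at least 10 reads in each region on average (limma F test, 0.0% of 7640 transcripts passed, smallest adjusted p among the genes 0.809). At an unadjusted p under 0.05 there were 0 of the 27 genes and 4.93% of all transcripts. Fitted differences of the ratio ran from 0.11 for Atg9a to 2.86 for Atg16l1 on the log2 scale (limma unadjusted p = 0.959 and 0.111). For Gabarapl1 the 24 h fit of the ratio had a difference of 0.35 on the log2 scale (unadjusted p = 0.596), beside 1.21 for its total footprints.

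An upstream open reading frame (uORF) is here an ATG followed in frame by a stop codon, both inside the 5′UTR. Region lengths in the files were matched to the annotation within 1 nt per exon of the transcript, and 11 of the 32 members matched differed in 5′UTR length, by 1 to 10 nt. Of these 32 members, 16 (50%) held at least 1, against 43.8% of 22205 transcripts. Among the 8 rhythmic genes that could be read, 3 did: Ulk1 with 2, Rb1cc1 with 2 and Nbr1 with 4. The short uORFs of Map1lc3a and Gabarap are shown because these genes and Gabarapl1 belong to 1 family and differ in this feature: the 255 nt leader of Gabarapl1 holds no ATG. Start and stop codons are in capitals (GRCm38.p6, RefSeq annotation).
Map1lc3a, chr2:155276396-155276425, plus strand: ATGggagcggcgcgccggcctccccttTAA
Map1lc3a, chr2:155276429-155276437, plus strand: ATGttgTGA
Gabarap, chr11:69991432-69991446, plus strand: ATGtcatatgtgTAA
Gabarap, chr11:69991556-69991582, plus strand: ATGgtcgggggcggggttgatgaaTAG

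Gabarapl1, with the most 5′UTR reads of the 39 genes (19066 over the 14 libraries), had no ATG in that leader. Gabarap had 4 uORFs and a 5′UTR share of 6.24%, while other members had uORFs and high shares: Atg9a 18 uORFs and 43.2% (both in the 1180 nt leader of the transcript used), Map1lc3a 2 and 28.5%, Atg4c 3 and 27.3%, and Atg13 2 and 25.9%. The relation of uORF number to share was not tested, and whether the reads of these 5′UTRs lie on the uORFs was not analysed here.

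Promoters were searched because CACGTG, the E-box, is the sequence that the clock factors CLOCK and BMAL1 bind and also the core of the sequence bound by TFEB and TFE3. The window ran from 250 bases before to 50 after the start site (RefSeq promoters, GRCm38.p6, 32 of the 39 members matched by symbol), and the motif reads the same on both strands. It was found in 5 of the 32 members, Atg3, Atg5, Atg7, Atg14 and Bnip3, and in 8.09% of 27025 genes. Of these 5, Bnip3 alone was among the rhythmic genes. The sites are shown with 12 bases on each side and the E-box in capitals.
Bnip3, chr7:138909597-138909626, minus strand: gcgcacgcgccgCACGTGccacacgctccc
Atg3, chr16:45158723-45158752, plus strand: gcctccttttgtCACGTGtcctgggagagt
Atg3, chr16:45158746-45158775, plus strand: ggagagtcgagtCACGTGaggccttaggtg
Atg5, chr10:44268313-44268342, plus strand: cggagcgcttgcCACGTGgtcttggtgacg
Atg7, chr6:114670952-114670981, plus strand: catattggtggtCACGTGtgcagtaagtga
Atg14, chr14:47568418-47568447, minus strand: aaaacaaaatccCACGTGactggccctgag

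The Bnip3 site lies 108 bases before the start. The second Atg3 site is the only one of the 6 to read TCACGTGA, a longer form that was also searched and that 1.12% of genes held. Of other motifs, searched on both strands, AGGTCA was in 6 members (Atg4a, Atg10, Ulk2, Gabarapl2, Pik3r4 and Nbr1) and 18.1% of genes, and TTATGTAA and TTACGTAA were in none of the members and in 1.11% and 0.126% of genes. A match is a description of the sequence, and the data hold no measurement of binding.

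Other genes of the pathway gave a background for these counts. Of 24 other autophagy genes tested, 2 were rhythmic, Wdr45, a WIPI-family gene, with a difference of 0.78 on the log2 scale at CT9.32 (adjusted p = 0.000785), and Retreg1, a receptor for the endoplasmic reticulum, with 1.54 at CT9.27 (adjusted p = 0.0123). Of 30 lysosome genes, 4 passed: Npc1, the cholesterol exporter, with 1.09 at CT10.3, Lipa, the acid lipase, with 0.69 at CT22.6, Mcoln1, a calcium channel, with 0.65 at CT15.3, and Atp6v1a, a subunit of the proton pump, with 0.47 at CT13.9. None of 31 proteasome subunits passed, and their median difference was 0.19. All these counts stand beside 11.3% of all transcripts.

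Of 33 genes of mTORC1, AMPK and FoxO signaling tested, 11 (33.3%, against 11.3% of all transcripts) were rhythmic, of which 9 peaked between CT6 and CT18 (54.0% of all rhythmic transcripts did). The 5 with the lowest p were Fnip1 (1.20 at CT10.5, adjusted p = 3.63e-05) and Flcn (1.11 at CT8.60, adjusted p = 0.00802), which encode partners in folliculin signaling, Prkaa2, a catalytic subunit of AMPK (0.62 at CT16.2), Lamtor1, the lysosomal anchor of mTORC1 (0.83 at CT0.535), and Ddit4, an mTORC1 inhibitor (2.03 at CT21.2). Under scaling by the library total, 2 of the 33 passed, beside 8.24% of all transcripts.

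Markers of other liver cells were low beside those of hepatocytes. Summed levels ran from 125 to 210 CPM for 10 Kupffer cell genes, 135 to 219 CPM for 8 endothelial genes and 117 to 191 CPM for 8 stellate cell genes, in each case lowest in a CT16 library and highest in CT0 replicate 1. Of the tested genes in these lists, 0 of 10, 0 of 8 and 1 of 8 (Pdgfrb) were rhythmic, and of 10 hepatocyte genes 3 were (Serpina1c, Tat and Cyp2e1). The sums of 6 cholangiocyte genes (11.04 to 24.4 CPM, Sox9 rhythmic), 6 lymphocyte genes (2.16 to 5.44 CPM) and 4 erythroid genes (38.9 to 77.2 CPM) were lower still, and those of 5 kidney genes were at most 0.0675 CPM, with Slc12a1, Aqp2 and Kap at 0 in all libraries. All 6 pancreatic acinar genes found passed the rhythm test, but their sum was 3229 CPM in CT20 replicate 2 against a median of 7.45 CPM. How far these calls rest on that 1 library was not tested. The part of these cells in the rhythms of the autophagy genes was not tested. Without both CT20 libraries 7 of the 38 genes passed, 6 of them among the 9, beside 11.4% of all transcripts. Without both CT16 libraries 8 passed, all among the 9, beside 8.55% of all transcripts.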

How the data were processed

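Per the labels and the study's methods, the authors clipped adapters, removed rRNA reads, aligned the rest to mm10 (the submitters' notes name Bowtie2 2.1.0.0, SAMtools 0.1.19.0 and FastQC) and deposited, without normalization, raw counts for the 3 regions (5′UTR, CDS, 3′UTR) of each of 28167 RefSeq transcripts. The methods state that exact matches were kept and that density profiles were made from reads with a single place in the genome. Whether the deposited counts were limited in the same way is not given in the sources used here. Map1lc3b, whose coding stretches of 28 nt all occur elsewhere, has counts, so levels of genes with copies elsewhere are uncertain.

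The counts of the 3 regions were added, and each gene was read from its transcript with the highest mean count (ties to the longest CDS). The rhythm test was edgeR's quasi-likelihood F test of cosine and sine terms of 24 h (edgeR 4.0.16, R 4.3.3, TMM scaling, Benjamini-Hochberg adjustment), run on the 17299 transcripts that averaged 10 or more counts. The same tool tested the 7 times as groups and CT24 against CT0, and limma 3.58.1 tested log2 of 5′UTR over CDS counts (0.5 added to each). Phase and size came from edgeR, and their standard errors from a least-squares cosine on log2(CPM + 0.5). Ratios of paralogs were tested with 100000 permutations of the times. DESeq2 1.42.0 and JTK_CYCLE, rewritten in Python 3.11.15, served as alternatives, with other scalings, count minimums, left-out libraries and a replicate block. The edgeR tests of the cosine and of the 7 times, the limma ratio test, the DESeq2 test and JTK_CYCLE were also run on simulated data. The comparison of CT24 with CT0, the ratios of paralogs and the sequence searches were not.

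Named genes were all members, with all 14 values for those past an adjusted p of 0.05 (at most 10), plus the 5 with the highest CDS density and a few fixed names. Other genes were 4 clock genes, up to 5 rhythmic genes for each list and the kidney markers at 0 in all libraries. The members and lists were chosen with earlier results of these data known. Counts summed to 40593197 to 90458783 per library over all transcripts and to 29804838 to 65107827 over 1 transcript per gene. The sums over all transcripts exceed the mapped reads listed in the study's supplement, so they are not numbers of distinct reads. The highest sum over 1 transcript per gene also lies above the study's stated range of reads mapped to mRNA. Those sums cannot be taken as numbers of distinct reads either.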

Additional observations from a re-analysis of the deposited data

How the results depend on the processing

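With TMM, DESeq2 size factors or upper quartile scaling the same 9 genes were rhythmic, and leaving out each library in turn gave 6 to 10 genes (1499 to 2058 transcripts), of which 6 to 9 were among the 9, with Optn, Bnip3l or Wipi1 added in some fits and with Gabarapl1, Atg101, Bnip3, Ulk1, Map1lc3b and Atg2a called in all 14 of these fits. Scaling by total count gave 2 genes, 2 instead of 5 that differed among the 7 times, and 0 of 24 other autophagy, 1 of 30 lysosome and 2 of 33 mTORC1, AMPK and FoxO genes. The DESeq2 likelihood ratio test called 10 genes, the 9 and Bnip3l, and 2539 of 16292 transcripts (15.6%). JTK_CYCLE on TMM-scaled CPM called 13 genes and 3068 transcripts by its own adjusted P, and 5 genes and 637 transcripts after Benjamini-Hochberg adjustment, which kept 4 of the 9 (without Gabarapl1, Ulk1, Rb1cc1, Nbr1 and Sqstm1) and added Pik3r4. With a count minimum of 1 count 7 of the 9 passed (without Nbr1 and Sqstm1), beside 9.47% of transcripts. With no minimum 9 genes passed (Bnip3l in place of Nbr1), beside 9.97%, and over CDS reads alone 8 (without Rb1cc1), beside 10.8%. When 1 library was left out, the fitted size moved by over 1.5 times in 14 of the 38 genes, none of them among the 9. On total-count CPM JTK_CYCLE called 7 genes (Atg101 and Sqstm1, with Atg7, Atg10, Gabarap, Pik3r4 and Ulk2 added) and 3840 transcripts. With 1 transcript per gene 8 genes (without Sqstm1) and 1244 of 11618 transcripts passed (10.7%). Nbr1 moved to CT23.2 (adjusted p = 0.937) with total-count scaling and to CT0.0 in JTK_CYCLE on total-count CPM (adjusted P = 1.0). The number that differed among the 7 times was 1 to 5 when libraries were left out. Restricting the E-box to TCACGTGA left 1 member. Without both CT20 or both CT16 libraries, alternatives chosen after seeing the data, 7 and 8 genes passed, beside 11.4% and 8.55% of transcripts.

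The labels do not say whether the replicate numbers mark a batch, and this was not tested. Differences between replicates correlated over 0.1 in 3 of 21 pairs of times (median r = 0.03), and a low correlation cannot show that no batch is present. With a replicate block 9 genes were rhythmic (Bnip3l in place of Sqstm1), beside 11.1% of transcripts, and 3 instead of 5 differed among the 7 times. The cause of these changes was not tested. With 2 mice per time, rhythms of small size may have been missed.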
